A study of Mus musculus with 2 samples.

Results

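Levels of 7 long noncoding RNAs were compared between 2 mouse acute promyelocytic leukaemias, APL#1 and APL#2: Neat1, Malat1, Gas5, Snhg1, Snhg3, Snhg8 and Dleu2. They were chosen by their FPKM in these same libraries, with the values known, and were found by symbol among the 23235 genes of the deposited table, where each matched 1 row. The series describes the leukaemias as clones with unequal frequencies of leukaemia-initiating cells, and the sources used here do not say which has more. Each leukaemia was represented by 1 RNA library, so every difference lacks a replicate check and none was tested here. Both libraries came from primary, untreated APL cells with the genotype PML-RAR KI, in a source named mCG-PML-RAR transgenic mice, of strain C57BL/6-Ly5.2 and labelled 10 weeks of age. The labels do not explain mCG, and they name the mice both as transgenic and as KI. The sample titles, S12_VEH for APL#1 and S18_VEH for APL#2, carry a tag, VEH, that they do not explain. Cells of 1 mouse for each leukaemia were injected into recipients of strain C57BL/6-Ly5.1 that had not been irradiated, 2000000 cells for APL#1 and 200000 for APL#2. The CD45.2+ cells were then recovered from spleen on magnetic columns. The leukaemia, the cell dose, the recipients, any difference in sex between the mice and the library cannot be told apart.

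Long noncoding RNAs are transcribed and often spliced like messenger RNAs but do not act through a protein product. Neat1 is the scaffold on which paraspeckles, bodies in the nucleus, are built, and Malat1 accumulates in nuclear speckles, where splicing factors are stored. Gas5, Snhg1, Snhg3 and Snhg8 carry small nucleolar RNAs (snoRNAs), the guides for chemical modification or processing of ribosomal RNA, inside their introns. The spliced host RNA is exported and is often degraded by nonsense-mediated decay. Dleu2 hosts the microRNAs miR-15a and miR-16-1 and lies in a region that is deleted in many human chronic lymphocytic leukaemias. In human APL, NEAT1 has been reported to be held low by the PML-RAR fusion protein and to increase during retinoic acid treatment.

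Of the 7 RNAs, 6 had a mean level of at least 1 FPKM (sequenced fragments per kilobase of transcript, scaled to the size of the library) over both libraries, as did 4100 genes of the table. All 6 were higher in APL#2, and Dleu2, the RNA under that level, was lower. With 1 FPKM added to each level before taking log2, written log2(FPKM + 1) below, 2 of the 6, Neat1 and Malat1, differed by 2-fold or more, both higher in APL#2, and none was at least 2-fold lower. By the same measure 2.1% of all measured genes were at least 2-fold higher in APL#2, and 2.44% were at least 2-fold lower, 4.54% in either direction. A value above 0 was found in 28.4% of measured genes. The RNAs were chosen with these levels known, so these counts describe them and support nothing further. On this scale all measured genes had a median of -0.17, and the 6 measured RNAs one of 0.55.

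**Figure D1:**
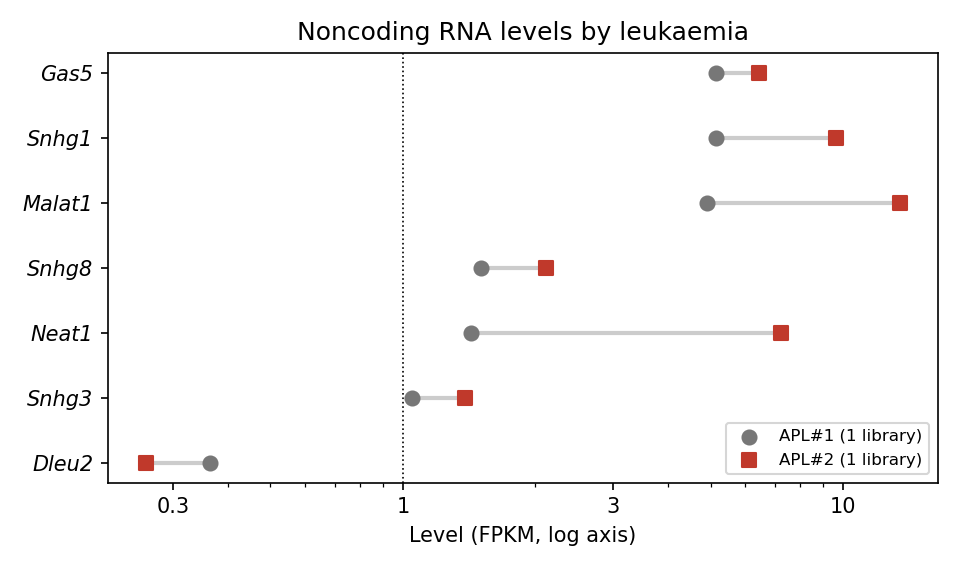
Level of each of the 7 RNAs in FPKM (log axis) in APL#1 (grey circles) and APL#2 (red squares), 1 library each, with no error bars because there are no replicates; the dotted line marks 1 FPKM. Neat1 has the longest line, from 1.43 to 7.21 FPKM, and Dleu2 is the only one of the 7 with the APL#2 point on the left.

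The start regions of the RNAs are shown first, because the hosts are known for a start site within a run of pyrimidines (the 5′ TOP), a feature they share with ribosomal protein genes. RefSeq start regions on GRCm38.p6 were found for 6 of the 7: Malat1, Gas5, Snhg1, Snhg3, Snhg8 and Dleu2. For Gas5, with 2 listed starts, the one that gave the length nearest to the deposited locus was used. Each sequence runs 5′ to 3′ on the gene's strand from 50 bases before the annotated start through 50 bases from it on. Capitals mark TATAAA on either strand (TTTATA when read on the gene strand) and a run of at least 5 pyrimidines that opens with C within 5 bases of the start.
Malat1 (chr19:5802623-5802722, - strand): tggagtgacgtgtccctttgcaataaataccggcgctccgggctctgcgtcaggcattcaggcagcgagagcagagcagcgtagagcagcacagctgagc
Gas5 (chr1:161035116-161035215, + strand): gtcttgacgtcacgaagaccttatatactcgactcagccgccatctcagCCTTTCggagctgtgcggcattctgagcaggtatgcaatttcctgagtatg
Snhg1 (chr19:8723437-8723536, + strand): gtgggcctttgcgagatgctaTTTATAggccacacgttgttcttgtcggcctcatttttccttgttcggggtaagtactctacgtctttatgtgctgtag
Snhg3 (chr4:132353637-132353736, - strand): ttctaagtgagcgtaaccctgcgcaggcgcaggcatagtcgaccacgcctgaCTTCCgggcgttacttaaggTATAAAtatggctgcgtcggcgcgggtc
Snhg8 (chr3:123508287-123508386, - strand): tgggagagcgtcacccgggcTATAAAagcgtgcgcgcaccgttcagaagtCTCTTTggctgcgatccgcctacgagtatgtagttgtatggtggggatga
Dleu2 (chr14:61682324-61682423, - strand): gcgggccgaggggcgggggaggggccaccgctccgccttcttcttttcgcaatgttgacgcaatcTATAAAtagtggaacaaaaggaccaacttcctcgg
The run of pyrimidines was found in Gas5, Snhg3 and Snhg8, with lengths of 6, 5 and 6 bases. It was found in 18.3% of all 32851 start regions and in 42.1% of 76 start regions of ribosomal protein genes, so many annotated starts of known TOP genes lack it. TATAAA on either strand was found at -29 in Snhg1 and -30 in Snhg8, and after the annotated start in Snhg3 and Dleu2. Of all start regions, 4.94% held TATAAA in this window of 100 bases. A match is a description of these letters and says nothing of binding or of true starts.

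Neat1 had the largest difference of the 7. The deposited Neat1 row (mm9, chr19:5842302-5845478) measured 1.43 FPKM in the APL#1 library and 7.21 FPKM in the APL#2 library, 5.05 times as much. This row spans 3177 bases, whereas the RefSeq gene on GRCm38 spans 20773 bases. The row therefore covers the short form of Neat1 and the part of the long form that overlaps it; the rest of the long form, which paraspeckles need, was not measured. On log2(FPKM + 1) the difference was 1.76, or 1.93 above the all-gene median, and 98.9% of measured genes had a smaller value. About 234 fragments in APL#1 and 1289 in APL#2 lay behind these levels, as estimated from the low values of the table. Counting error alone gave a 95% interval of 4.39 to 5.80 for the ratio. In APL#1 only Snhg3 and Dleu2 of the 7 were lower than Neat1, and in APL#2 only Malat1 and Snhg1 were higher.

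Malat1 was the most abundant of the 7 in APL#2. Its row (mm9, chr19:5795690-5802671), a locus of 6982 bases, measured 4.90 FPKM in the APL#1 library and 13.5 FPKM in the APL#2 library, 2.75 times as much. The difference on log2(FPKM + 1) was 1.29, or 1.46 above the all-gene median. About 1761 and 5285 fragments lay behind the levels, with a counting interval of 2.60 to 2.90 for the ratio. Malat1 FPKM was 3.43 times that of Neat1 in APL#1 and 1.87 times in APL#2. Neat1 made up 7.32% of the summed FPKM of the 7 RNAs in APL#1 and 17.8% in APL#2, and Malat1 25.1% and 33.2%. That sum was 19.5 FPKM in APL#1 and 40.5 in APL#2. In RNA from a bulk of cells, fewer cells that make an RNA and less RNA per cell cannot be told apart.

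The authors' own test gives a wider error than counting does. Dividing the log2 ratio of a gene by the size of its test statistic in the authors' deposited table gives the standard error that their test implied. It was 0.77 for Neat1, beside a plain log2 ratio of 2.33, and 0.50 for Malat1, beside 1.46. In the authors' deposited table p was 0.00239 for Neat1 and 0.00328 for Malat1, and q was 0.618 and 0.740. None of the 7 RNAs had q of at most 0.05 there, a level that 0.0473% of all genes met. For the other 5 RNAs the implied error exceeded the log2 ratio: 0.68 for Gas5, 1.10 for Snhg1, 1.27 for Snhg3, 1.25 for Snhg8 and 1.50 for Dleu2. These errors rest on the authors' model and not on replicates.

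**Figure D2:**
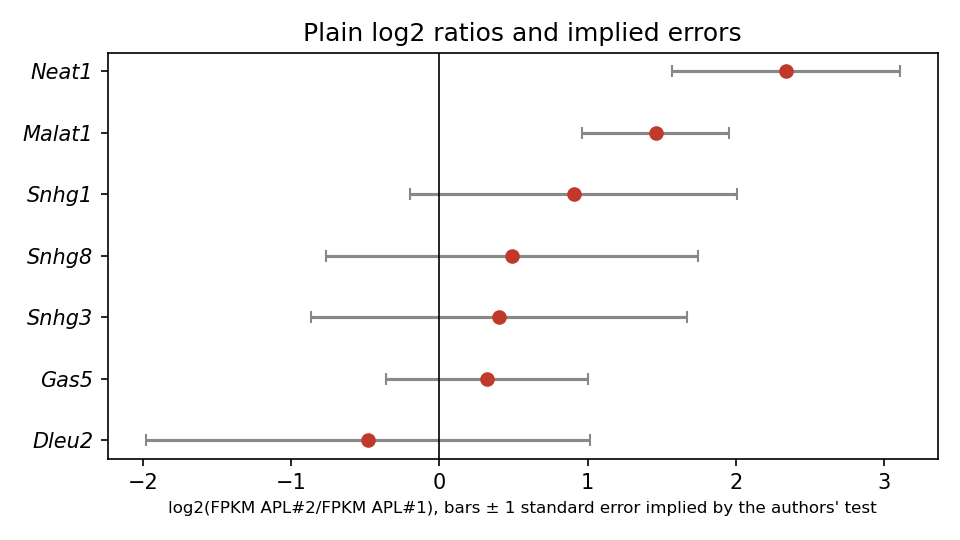
Plain log2 ratio of APL#2 to APL#1 FPKM for each of the 7 RNAs, with bars of 1 standard error on each side as implied by the authors' test statistic. The bars of Neat1 (2.33, error 0.77) and Malat1 (1.46, error 0.50) lie above 0, and those of the other 5 cross it.

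Neat1, Malat1 and Snhg1 lie on chromosome 19, where most genes were higher in APL#2. The 134 measured genes of chromosome 19 had a median difference of 0.43 on log2(FPKM + 1), and 129 of them lay above 0. Set against that median, Neat1 stood 1.33 higher, Malat1 0.86 and Snhg1 0.36, so Neat1 was still more than 2-fold apart and Malat1 was not. On this chromosome 1 gene, Anxa1 (5.08 and 22.7 FPKM), had a larger difference than Neat1. Between Neat1 and Malat1 came Snord22 and Macrod1 (2.06 and 7.20 FPKM), and 21 genes had a larger difference than Snhg1. Of the 134 genes 9 were at least 2-fold higher, which is 6.72%. The 9 include Neat1 and Malat1 themselves and Snord22, whose implied error was 6.02 (log2).

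The named genes near Neat1 and Malat1 differed less than these RNAs did. Neat1 and Malat1 are separated by 39.6 kb. Below Malat1 in coordinates, Pcnxl3 measured 0.855 and 1.25 FPKM, a difference of 0.28, and Sipa1 differed by 0.20. Above Neat1, Dpf2, at 51.7 kb, stood at 0.992 and 1.46 FPKM, a difference of 0.31. Capn1, a calpain protease gene, differed by 0.42, and Syvn1, an ER ubiquitin ligase gene, by -0.10. Just beyond Syvn1, Fau, which starts 0.216 Mb from the start of Neat1, differed by 1.16, close to Malat1. The step from these neighbours to Neat1 and Malat1 was not tested.

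**Figure D3:**
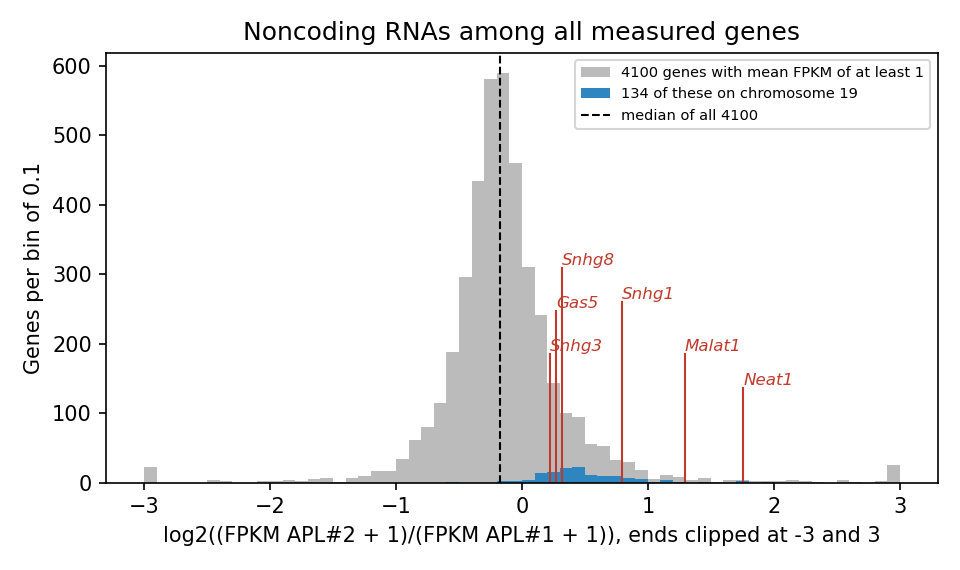
Number of genes by difference on log2(FPKM + 1), in bins of 0.1, for the 4100 measured genes (grey) and the 134 of them on chromosome 19 (blue), with red lines for the 6 measured RNAs and a dashed line for the all-gene median of -0.17. All 6 red lines lie to the right of the dashed line, from Snhg3 at 0.22 to Neat1 at 1.76.

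**Figure D4:**
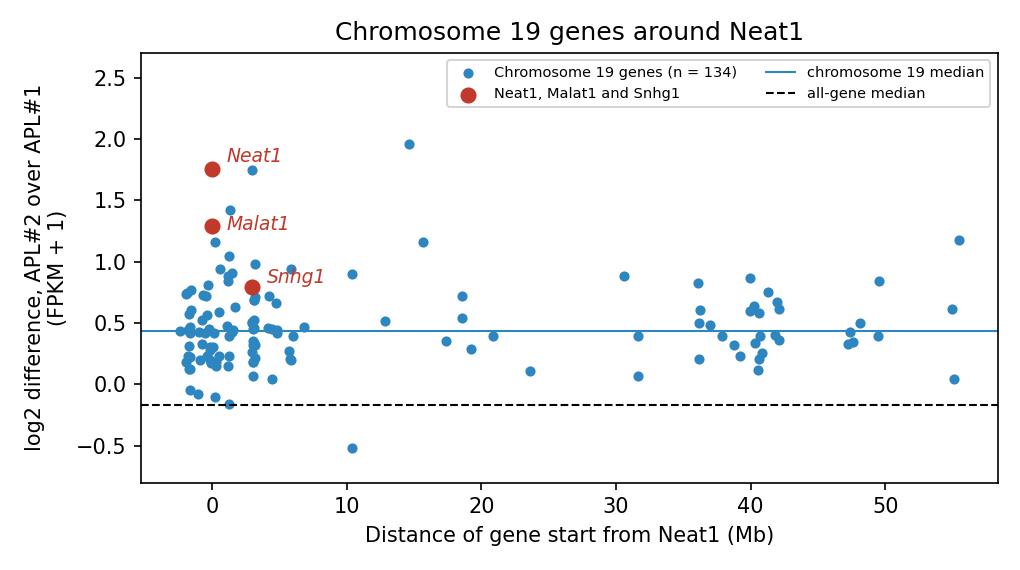
Difference on log2(FPKM + 1) against the distance of each gene's start from that of Neat1, in Mb, for 134 chromosome 19 genes; lines mark the medians of chromosome 19 (0.43) and of all genes (-0.17). Neat1 and Malat1 stand above the genes at distances near 0, of which Fau, at 0.216 Mb, lies at 1.16. Snhg1 (0.79) stands among the genes around it.

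The snoRNA hosts differed by less than Neat1 and Malat1. Snhg1 (mm9, chr19:8797977-8800816), host of the U22 snoRNA and others, measured 5.14 FPKM in the APL#1 library and 9.62 FPKM in the APL#2 library, 1.87 times as much. Its difference of 0.79 was 0.96 above the all-gene median. Gas5 (mm9, chr1:162965297-162968668), named for its accumulation in growth-arrested cells and known to bind the glucocorticoid receptor, measured 5.16 FPKM in the first leukaemia and 6.44 FPKM in the other, 1.25 times as much. Gas5 led the 7 RNAs in APL#1, where Gas5, Snhg1 and Malat1 were close to each other, with Gas5 at 1.00 times Snhg1 and Malat1 at 0.950 times Gas5. In APL#2 these were 0.670 and 2.09 times, and Malat1, Snhg1 and Neat1 all stood above Gas5.

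Snhg3 and Snhg8 were the low hosts. Snhg8 (mm9, chr3:123210470-123211254), host of the H/ACA snoRNA Snora24, measured 1.50 FPKM in the first leukaemia and 2.11 FPKM in the other, 1.41 times as much. Snhg3 (mm9, chr4:131907848-131909601), host of the U17 snoRNAs that act in early processing of ribosomal RNA, measured 1.05 and 1.39 FPKM, 1.32 times as much. Their differences were 0.31 and 0.22 on log2(FPKM + 1), and 0.54 and 0.43 above the medians of their own chromosomes. For Gas5 the difference was 0.27, which is 0.39 above the median of chromosome 1. In both libraries Snhg8 was above Snhg3 and both were below Gas5 and Snhg1.

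The other measured noncoding hosts went in both directions. Of 21 symbols in the list, 13 were in the table and 9 were measured, 4 of them among the 7 RNAs. Of the other 5, 4 lay above the all-gene median, beside 50% of all genes by definition, with a median of 0.53. With the 4 chosen RNAs it was 8 of 9 and a median of 0.31. On log2(FPKM + 1), 1 of the 5 was at least 2-fold higher and none at least 2-fold lower, beside 2.1% and 2.44% of all measured genes. Snhg12, 40.9 kb from Snhg3 on chromosome 4, was the most abundant, at 10.3 and 15.3 FPKM. Snhg6 stood at 2.41 and 4.37 FPKM, and Snhg5 at 6.94 and 6.24. The host that passed 2-fold on that scale was 1500012F01Rik, listed by RefSeq as Zfas1, at 1.21 and 4.24 FPKM, with an implied error of 1.71 (log2). It lies in 1 deposited locus with Znfx1 (0.284 and 0.401 FPKM). Snhg9, on a locus of 435 bases, went the other way, at 2.53 and 0.781 FPKM. This is 3.24 times as much in APL#1, but -0.99 on log2(FPKM + 1), and the implied error was 2.58.

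The snoRNAs inside these hosts have rows of their own, but these could not be compared with the hosts. Snord47, at the Gas5 locus, was listed at 328 and 227 FPKM, while Gas5 was higher in APL#2. Snord22, at the Snhg1 locus, stood at 6.91 and 25.6 FPKM. Snora24, at the Snhg8 locus, and Mir5117, at the Gas5 locus, were listed at 0 in both. The implied errors were 10.5 for Snord47 and 6.02 for Snord22 (log2), so neither difference can be read. At the Snhg12 locus, Snord99 was listed at 261 FPKM in APL#1 and at 0 in APL#2, and Snora61 at 0 and 105 FPKM. Of 105 snoRNA rows in the table, 56 were at 0 in both libraries and 26 were above 0 in both. The labels name no step that enriches small RNAs, and a few fragments on so short a gene give a large FPKM.

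Many snoRNAs lie in introns of protein-coding genes. Of 32 measured coding hosts, 28 lay above the all-gene median (list median 0.31). The 16 ribosomal protein genes among them all lay above it, with a median of 0.49, and the other 16 had a median of -0.02, with 12 above it; this split was made after the values were seen. Rps12 (478 and 965 FPKM) was the 1 host at least 2-fold higher on log2(FPKM + 1). Rps20 stood at 45.5 and 83.8 FPKM, and Eef1b2, an elongation factor gene, at 6.95 and 13.0. All 15 measured 5′ TOP genes outside the ribosome lay above the all-gene median (list median 0.29). None of these 15 rows was 2-fold apart between the libraries on log2(FPKM + 1). Among them were Eef1a1 (148 and 260 FPKM), Hnrnpa1 (2.64 and 5.72 FPKM, a plain ratio of 2.17) and the chromosome 19 gene Eef1g (3.51 and 7.90 FPKM, a plain ratio of 2.25). Several of these genes have processed pseudogenes, and reads may have been split between the copies. Of the 5′ TOP genes, Eef1b2, Eef2, Gnb2l1 and Tpt1 are also among the coding hosts, so these lists overlap.

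Of 12 measured snoRNP protein genes, 6 lay above the all-gene median and none was 2-fold apart, with a list median of -0.16. Dkc1 and Nop56 are also among the coding hosts. Nop56, a core protein of C/D box snoRNPs, stood at 3.37 and 2.05 FPKM, and Nop10, of H/ACA snoRNPs, at 3.88 and 2.47. Both lie on chromosome 2. Ruvbl2 and Pih1d1, of the assembly machinery, stood at 3.73 and 2.65 FPKM and at 2.26 and 1.52 FPKM. Of 11 measured genes of nonsense-mediated decay, 5 lay above the all-gene median (list median -0.23). The central helicase gene Upf1 stood at 2.05 and 1.52 FPKM, Smg5 at 1.60 and 1.09, Eif4a3 at 2.91 and 2.11, and Magoh at 4.63 and 3.68.

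No measured gene of the protein partners of Neat1 and Malat1 differed by as much as either RNA on log2(FPKM + 1). Of 15 measured paraspeckle protein genes, 8 lay above the all-gene median (list median -0.17, within rounding of that of all genes). Sfpq, a core paraspeckle protein, measured 13.8 and 9.65 FPKM. Dazap1 stood at 4.05 and 2.63 FPKM and Smarca4 at 2.23 and 1.39. The row of Hnrnpa1 alone had the highest difference of the matched rows, at 0.88. Of 12 measured nuclear speckle genes, 9 lay above the all-gene median (list median 0.01). The speckle scaffold gene Srrm2 stood at 5.04 and 6.72 FPKM, Srsf2 at 13.5 and 10.0, Acin1 at 8.24 and 6.56, and Srrm1 at 3.49 and 2.80. RNase P cuts the precursors of Malat1 and of the long form of Neat1 at the 3′ end. Its measured subunit genes were Rpp21 (4.01 and 3.27 FPKM), Pop4 (1.47 and 1.17) and Pop7 (1.22 and 0.935). They lay close to the all-gene median, at -0.06, -0.02 and -0.03 from it. None of the rows matched for these 3 lists was at least 2-fold apart on log2(FPKM + 1), whereas the joint row was.

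Genes of factors reported to act on Neat1 were also close between the libraries. Of 6 measured, 5 lay above the all-gene median and none was 2-fold apart, with a list median of -0.01. Rara, the retinoic acid receptor gene that is also part of the fusion, stood at 7.20 and 8.65 FPKM. Hsf1 stood at 1.94 and 1.27 FPKM, Atf4 at 11.6 and 10.3, and Hif1a at 1.61 and 1.77. How active these factors were is not measured by their RNA.

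**Figure D5:**
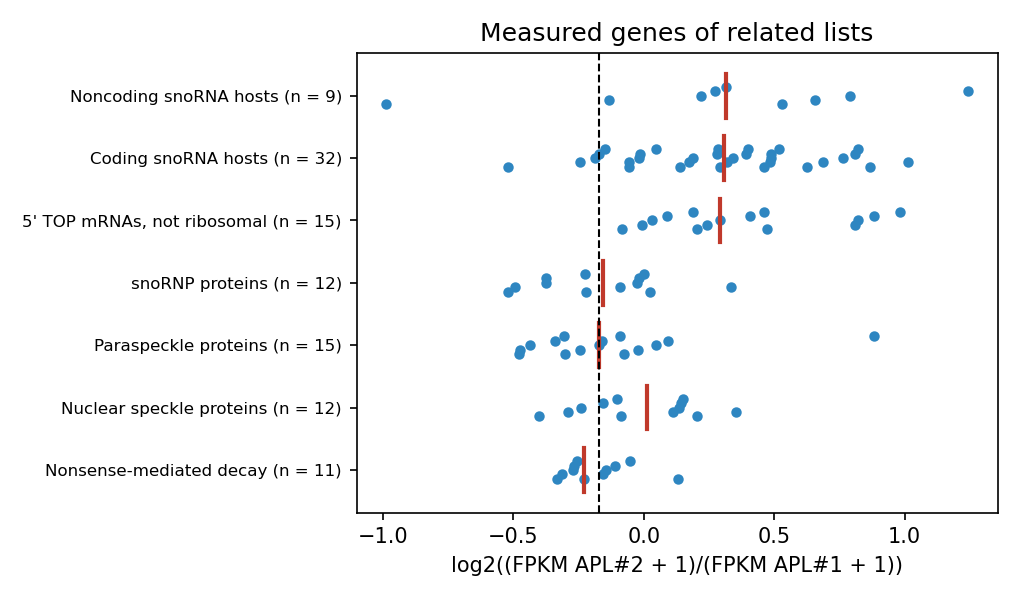
Difference on log2(FPKM + 1) for each measured gene (points) of 7 gene lists, with the list median (red bar) and the all-gene median of -0.17 (dashed line); n is the number of measured genes. The medians of the first 3 lists lie at 0.31, 0.31 and 0.29, and those of the other 4 between -0.23 and 0.01. Some genes are in more than 1 list, and the joint row of Gm10052 and Hnrnpa1 is not shown.

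Dleu2 was the lowest of the 7 RNAs. The microRNAs it hosts share the seed AGCAGCA, bases 2 to 8, with miR-15b, which comes from a separate gene on chromosome 3. The mature RefSeq sequences (GRCm38.p6), with the seed in capitals, are shown because this seed defines the targets listed next.
mmu-miR-15a-5p (chr14:61632075-61632096, - strand): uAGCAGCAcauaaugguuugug
mmu-miR-16-5p (chr14:61631936-61631957, - strand): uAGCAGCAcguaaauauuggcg
mmu-miR-15b-5p (chr3:69009775-69009796, + strand): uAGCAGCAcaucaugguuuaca
Dleu2 measured 0.364 FPKM in the APL#1 library and 0.260 FPKM in the APL#2 library, 1.40 times as much in APL#1, with a difference of -0.11, above the all-gene median of -0.17. Its deposited locus (mm9, chr14:62217063-62301210) is shared with Trim13 (0.217 and 0.165 FPKM) and Kcnrg, which was listed at 0. No source used here gives the strand setting of the counting, so reads of overlapping genes in this locus may not be separable. The rows of Mir15a, Mir16-1, Mir15b and Mir16-2 were all listed at 0 in both libraries, which in these libraries does not measure mature microRNAs. Of 10 reported targets of this seed family 5 were measured and none was 2-fold apart, with a list median of -0.04. Cdk6 stood at 4.68 and 3.96 FPKM, Bcl2 at 0.926 and 1.18, Cdc25a at 1.59 and 1.38, and Vegfa differed by -0.04. The export genes Ran (3.70 and 2.75 FPKM) and Xpo5 (1.11 and 0.937) were the measured genes of microRNA processing. Of 7 Dleu2 neighbours in the table none was measured.

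Few other well-known long noncoding RNAs were measured. Of 42 symbols 23 were in the table, 9 were listed at 0 in both libraries and 4 were measured, with 2 above the all-gene median. Xist, the RNA of X inactivation, was at 0.0319 and 8.20 FPKM and so counts as measured only through its level in APL#2. It was the 1 of the 4 at least 2-fold apart on log2(FPKM + 1), beside 4.54% of all measured genes. The Y-linked gene Eif2s3y differed by -1.61 on that scale. Whether the mice behind the 2 libraries differed in sex was not tested. Gm14005, listed by RefSeq as Morrbid, an RNA known to promote survival of short-lived myeloid cells, stood at 14.4 and 10.8 FPKM and so above each of the 7 RNAs in APL#1. Sra1 stood at 2.12 and 1.02 FPKM, -0.63 on that scale, and 2900097C17Rik, a symbol RefSeq lists under both Norad and Bscl2, at 1.80 and 1.54. The list median was -0.27.

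The cells carried the markers of promyelocytes, at unequal levels. All 8 promyelocyte marker genes were measured, with Mpo at 662 FPKM in APL#1 and 157 in APL#2, Elane at 32.4 and 5.01, Prtn3 at 3.45 and 2.45 and Ctsg at 7.89 and 8.99. Their summed level was 722 and 189 FPKM, most of it from Mpo. Of the 8 genes 5 lay above the all-gene median (list median -0.14). Mpo and Elane were the 2 at least 2-fold lower on log2(FPKM + 1), beside 2.44% of all measured genes. Some markers of other spleen cells were also measured. None of 5 erythroid, 5 B cell and 5 T or NK cell genes in the table was measured, and their summed levels were 0.0371 and 0.0243, 0.196 and 0.404, and 0.0526 and 0.113 FPKM. Of 7 macrophage and dendritic cell genes 2 were measured, Vcam1 (3.94 and 7.47 FPKM) and Cd68 (1.54 and 1.01), with a summed level of 5.66 and 9.20 FPKM. The others were Emr1 (0.0230 and 0.537 FPKM), Csf1r (0.0667 and 0.101), C1qa (0.0597 and 0.0552), Itgax (0.0209 and 0.0212) and Flt3 (0.00507 and 0.00937). Of 4 platelet genes Itga2b was measured (2.34 and 3.95 FPKM), Gp1ba stood at 0.0277 and 0.0576, and Pf4 and Ppbp were listed at 0 (summed level 2.36 and 4.01 FPKM). Of 6 stromal and endothelial genes Pecam1 (3.62 and 1.62 FPKM) and Pdgfrb (1.30 and 1.11) were measured and Col1a2 and Kdr were listed at 0 (4.94 and 2.73 FPKM). Of the measured genes in these lists of other cells, Vcam1 and Itga2b were higher in APL#2, with differences of 0.78 and 0.57. Cd68, Pecam1 and Pdgfrb were lower in APL#2, with differences of -0.34, -0.82 and -0.13. The part of these markers in the differences of Neat1 and Malat1 was not tested.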

How the data were processed

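RNA sequencing gave 1 library for each leukaemia, and groups follow the sample descriptions. The FPKM values were deposited by the authors in 1 gene table; the unit was read from its Cuffdiff layout. Per the submitters' processing notes, TopHat2 2.0.10, Cufflinks, Cuffdiff and mm9 were used; for annotation, strand, filters and normalization the sources used here give nothing. The test statistic (a score), p-value and q-value per gene were deposited by the authors, per the file headers. The deposited log2 column was not used because it holds placeholders.

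Differences were computed as log2((APL#2 + 1)/(APL#1 + 1)) with Python 3.11.15, and genes with mean FPKM of at least 1 are called measured. No test was run. The value of 1 fragment on 1 kb was read from the lowest values of genes with 1 GENCODE transcript, at 0.0194 FPKM in APL#1 (109 genes) and 0.0178 in APL#2 (137 genes); steps were tested on simulated data. Intervals from it cover counting error only and use the deposited locus length. Summed FPKM was 34894 and 35240. The RNAs and the 21 gene lists were chosen with earlier results of these data known. Named genes are the 7 RNAs, all measured noncoding hosts and other long noncoding RNAs, up to 4 genes with the largest differences in each other list, rows at the loci of the RNAs, the 3 genes nearest to Neat1 in difference, and the 3 nearest measured genes on each side of Neat1 and Malat1. Rows at loci of other hosts, marker genes at 0, Emr1, Trim13, Kcnrg, Anxa1 and Macrod1 were named after their values were seen. The same holds for Fau, Eif2s3y, Eef2, Gnb2l1, Tpt1, Csf1r, C1qa, Itgax, Flt3, Gp1ba and the joint row of Gm10052 and Hnrnpa1. Some genes that this rule names are not reported here. Other pseudocounts, filters and scalings were tried.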

Additional observations from a re-analysis of the deposited data

How the results depend on the processing

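Of 61 alternative values 46 stayed within the error of the reported one and 15 moved, by 1 implied standard error for an RNA, 1.5 times for a count of RNAs, or a 95% interval over genes. For 5 of the RNAs that error exceeded the log2 ratio itself, so staying within it says little about them. Malat1, at 0.90 with a pseudocount of 5, fell below 2-fold and still counts as staying. With a pseudocount of 5 the Neat1 difference was 0.93, no RNA was 2-fold apart (0), 2.27% of measured genes were, and the all-gene median was -0.073. With a pseudocount of 0.1 that share was 9.37% and the median -0.25. A minimum mean of 5 FPKM left 1 RNA 2-fold apart, Malat1, since Neat1 was not kept, with 13.998% of genes and a median of -0.16. Without a minimum the values were 1.43% and -0.026. Without small RNA genes 3.02% of genes were 2-fold apart. Division by the median ratio gave 5.22% and a median of 0.0022, now above 0, and 3 RNAs 2-fold apart, Snhg1 (1.03) among them. Upper quartile scaling gave a median of -0.029. The median of noncoding hosts was 0.42 without Snhg9 and 0.29 without the chromosome 19 host, both chosen after seeing the data. Dleu2, within its implied error, changed sign against its chromosome median (0.10). No paired analysis was possible because each leukaemia has 1 library; for the same reason no replicate could be left out.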

Other observations

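The 3 measured genes with a difference nearest to that of Neat1, over 2 libraries only, were Hspa1b (3.67 and 14.8 FPKM), Snord22 and the histone gene Hist1h2bq (0.242 and 3.36 FPKM). Hspa1b has a near-identical neighbour, so its level is uncertain. With 2 libraries a like difference describes no shared pattern.

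At the loci of hosts outside the 7 RNAs, the small RNA rows were listed at 0 in 1 library or in both. Snord12, at the locus of 1500012F01Rik, was listed at 0 in APL#1 and at 68.7 FPKM in APL#2. Snord87, at the Snhg6 locus, was listed at 37.9 FPKM in APL#1 and at 0 in APL#2. Snora78, at the Snhg9 locus, was listed at 0 and 1.37 FPKM.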
